A study of Mus musculus with 4 samples.

Results

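The interleukin-1 (IL-1) family and inflammasome genes described here were 9 genes taken by symbol from the gene list of the deposited count matrix, out of 32285 genes in all. They were 3 agonist ligands (Il1a, Il1b and Il1f9), the receptor antagonist Il1rn, the decoy receptor Il1r2, the shared coreceptor chain Il1rap, the sensor Nlrp3, and the inflammatory caspases Casp1 and Casp4. They were followed in neutrophil-, monocyte-, macrophage- and dendritic-like cells, which made up 11135 of the 23011 cells kept from 4 single-cell RNA libraries. The genes were listed by symbol and not by a cutoff on a measured value. The list was nevertheless drawn up with earlier results of these data known. No gene of the pathway was targeted by the study, so none of them served as a check of a label.

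The study sorted live CD45+ leukocytes from subcutaneous tumors of the KPC line, a mouse pancreatic cancer line whose model carries a Trp53 R172H allele, among others, activated by Pdx1-driven Cre, grown in syngeneic C57BL/6 mice. The 4 groups were an untreated group, a group given a STING agonist (ADU-S100, a cyclic dinucleotide analog injected into the tumor), a group given an LTβR agonist (the antibody 4H8, given intraperitoneally) and a group given both. All 4 groups therefore shared the same grafted tumor line, site and host strain, and the sort was for host leukocytes. By the study's methods the STING agonist was a single injection at the start of treatment, and the antibody was given repeatedly. The tumors were taken on a set day after the last antibody dose. The time since the last dose thus differed between the agonists, and early responses to the STING agonist were not sampled. According to the study's methods the mice were male and the tumors of each group were pooled, so that each group was a single library and no spread between animals could be measured. No test between groups was possible. Every interval given is a 95% interval that covers counting error only, and a difference between 2 libraries compares those libraries.

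IL-1α and IL-1β both signal through a receptor made of IL1R1 and the coreceptor chain IL1RAP, and so switch on NF-κB in the target cell. The antagonist encoded by Il1rn occupies the same receptor without signaling, and IL1R2 binds the ligands without passing a signal on. IL-1β is made as an inactive precursor that caspase-1 cleaves once a sensor such as NLRP3 has assembled an inflammasome, while caspase-11, the product of mouse Casp4, senses lipopolysaccharide inside the cell and cleaves the pore-forming protein gasdermin D. Levels of messenger RNA do not measure how much active cytokine is released. In tumors, IL-1β is known as a product of neutrophils and of tumor-associated monocytes and macrophages.

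Several members sit next to each other in the genome (mouse build GRCm38, GENCODE annotation). Il1a (chr2:129299610-129309972, minus strand) and Il1b (chr2:129364570-129371139, minus strand) lie 54.6 kb apart, and Il1f9 (chr2:24186476-24193568) and Il1rn (chr2:24336853-24351494) lie 143 kb apart on the plus strand of the same chromosome. Casp1 (chr9:5298517-5307265) and Casp4 (chr9:5308828-5336783), both on the plus strand, are separated by 1.56 kb. The remaining members were Il1r2 at chr1:40074079-40125231, Il1rap at chr16:26581704-26730117 and Nlrp3 at chr11:59541568-59566956. The proximal promoters of 4 members, Il1a, Il1b, Il1f9 and Casp4, are shown for the following reason. Relative to all RNA counted in a class, each was highest in neutrophil-like cells over the 4 libraries together. They nevertheless differed in how they were spread over the other classes. The sequences are RefSeq's (GRCm38.p6), read 5′ to 3′ on the gene's strand, and end at the base before the start site, or, for Casp4, before the start of the GENCODE gene.
Il1a, chr2:129309973-129310222, minus strand: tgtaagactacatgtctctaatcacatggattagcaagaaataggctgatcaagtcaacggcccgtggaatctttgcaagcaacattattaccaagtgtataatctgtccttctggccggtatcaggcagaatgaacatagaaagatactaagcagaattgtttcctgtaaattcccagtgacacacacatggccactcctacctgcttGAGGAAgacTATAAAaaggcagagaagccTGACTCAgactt
Il1b, chr2:129371140-129371389, minus strand: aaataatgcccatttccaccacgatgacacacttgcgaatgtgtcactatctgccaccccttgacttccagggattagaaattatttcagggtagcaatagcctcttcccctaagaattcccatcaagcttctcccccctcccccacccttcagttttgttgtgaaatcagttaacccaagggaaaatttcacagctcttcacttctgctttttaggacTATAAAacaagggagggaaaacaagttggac
Il1f9, chr2:24186226-24186475, plus strand: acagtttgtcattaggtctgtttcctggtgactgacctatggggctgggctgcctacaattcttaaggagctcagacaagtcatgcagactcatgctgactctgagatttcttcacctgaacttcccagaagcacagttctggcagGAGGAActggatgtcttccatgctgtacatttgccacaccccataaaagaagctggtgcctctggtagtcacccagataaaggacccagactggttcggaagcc
Casp4, chr9:5308599-5308827, plus strand: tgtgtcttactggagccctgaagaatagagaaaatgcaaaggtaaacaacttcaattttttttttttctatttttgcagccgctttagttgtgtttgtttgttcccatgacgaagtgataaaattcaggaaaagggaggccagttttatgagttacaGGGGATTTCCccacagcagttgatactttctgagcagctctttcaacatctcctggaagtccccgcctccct
Capitals mark matches to any of 6 motifs searched on both strands in the 250 bases before each start: a TATA box (TATAAA), an NF-κB motif (GGG and TTTCC with any 2 bases between), a C/EBP motif (TTGCNNAA), an IRF motif (GAAA and GAAA with any 2 bases between), a PU.1 motif (GAGGAA) and an AP-1 motif (TGANTCA). Il1a carried TATAAA 32 bases before its start, together with GAGGAA and TGANTCA, and Il1b carried TATAAA 31 bases before its start. The TATA letters were found in 12.4% of all 32851 mouse promoters of this length and in no other member. Il1f9 matched GAGGAA, as did Il1a, Casp1 and Nlrp3, against 23.3% of all promoters. Casp4 matched the NF-κB motif 93 bases before its RefSeq start, and again 14 bases before it on the other strand, beyond the end of the printed stretch. These letters were present in 1.41% of all promoters and otherwise among the members in Il1rn alone. TGANTCA was found in Il1a and Il1rn, against 6.75% of all promoters. The C/EBP letters (9.56% of all promoters) and the IRF letters (2.98%) matched no member. A match describes the letters and not a bound site, and some motifs can overlap.

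The 4 libraries held 3955 to 7824 barcodes and a median of 5750 to 7094 unique molecular identifiers (UMIs) per kept cell, a UMI being 1 captured RNA molecule. Kept cells numbered 6783 in the untreated library, 3748 after STING agonist, 7147 after LTβR agonist and 5333 after both, and 568 barcodes occurred in more than 1 library. Classes were named from marker genes after clustering without the 9 members. The neutrophil-like class was 1 cluster of 229, 304, 387 and 69 cells in that order, with a median of 2240 UMIs per cell, the monocyte-like class was 2 clusters (2658 cells), the macrophage-like class 4 clusters (5996 cells) and the dendritic-like class 2 clusters (1492 cells). Neutrophil markers summed to 51568 to 71024 CPM (UMIs of a gene scaled to a fixed total per class, the usual unit of counts in such libraries) in the neutrophil-like cells and to 20.9 to 153 CPM in the other 3 classes. Markers of lymphocytes were present in some myeloid cells. The T cell markers summed to 355, 305, 272 and 56.6 CPM in the neutrophil-like cells of the untreated, STING, LTβR and combined libraries, and 22.8% to 32.1% of dendritic-like cells carried at least 2 lymphocyte markers. The part of these cells in the results below was measured by leaving them out, and the results that then lost their call are named beside the values. Fibroblast and tumor cell markers summed to at most 25.7 CPM in every class.

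The ligands differed in how they were spread over the classes. Il1b was the most widely spread, with UMIs in 98.8% of neutrophil-like, 93.9% of monocyte-like, 92.3% of macrophage-like and 91.4% of dendritic-like cells, against 8.93% of NK-like cells, which should lack it and had a median of 4708 UMIs. The classes differed in depth, and with every cell thinned to 1000 UMIs these shares were 98.1%, 84.0%, 84.3%, 74.4% and 1.54%, with 65, 28, 239, 22 and 15 shallower cells left out. Il1b in neutrophil-like cells was 16526 CPM (16220 to 16836) in the untreated library, 20117 (19824 to 20414) after STING agonist, 14028 (13829 to 14229) after LTβR agonist and 12846 (12347 to 13360) after both. These 4 intervals did not overlap, and the level was highest with the STING agonist and lowest with both agonists. Monocyte-like cells held 5079 CPM (5029 to 5129) in the untreated library, 5087 (5021 to 5154) after STING agonist, 4209 (4160 to 4258) after LTβR agonist and 4194 (4136 to 4253) after both, so that the libraries fell into a higher pair without and a lower pair with the LTβR agonist, the members of each pair overlapping. Macrophage-like cells held 5201 CPM (5169 to 5232) in the untreated library, 4981 (4939 to 5024) after STING agonist, 3983 (3954 to 4012) after LTβR agonist and 3490 (3453 to 3527) after both. Dendritic-like cells held 3540 CPM (3497 to 3583) in the untreated library, 4229 (4150 to 4309) after STING agonist, 2707 (2660 to 2755) after LTβR agonist and 2348 (2290 to 2406) after both. Over the 4 libraries, the level in neutrophil-like cells was 3.49-fold that of monocyte-like and 5.02-fold that of dendritic-like cells, and the neutrophil-like level was above that of every other class in each library. Macrophage-like cells were above monocyte-like cells in the untreated library and below them in the LTβR and combined libraries, and these 2 classes overlapped with the STING agonist.

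Il1a, whose product is active without caspase cleavage, had a different ranking. Neutrophil-like cells held 328 CPM (286 to 374) in the untreated library, 261 (229 to 297) after STING agonist, 200.1 (177 to 225) after LTβR agonist and 180.1 (125 to 251) after both, and macrophage-like cells 198 CPM (192 to 205) in the untreated library, 223 (214 to 232) after STING agonist, 227 (219.9 to 234) after LTβR agonist and 171 (163 to 179.6) after both. The ranges of these classes crossed, and neighbouring values in the order did not all differ beyond their intervals. Monocyte-like cells lay between 94.5 and 104 CPM in the 4 libraries with overlapping intervals. Dendritic-like cells held only 6.02, 4.67, 7.50 and 5.22 CPM in the order untreated, STING agonist, LTβR agonist and both, from 45, 12, 35 and 14 UMIs, 40.1-fold below neutrophil-like cells over the libraries together, although the same class held Il1b at 3235 CPM. The Il1a values of the neutrophil-like cells rested on few cells. UMIs were found in 23.6% (18.2 to 29.6), 21.1% (16.6 to 26.1), 21.4% (17.5 to 25.9) and 18.8% (10.4 to 30.1) of them, and with both agonists 1 cell held 42.9% of the 35 UMIs and 10 cells held 91.4%.

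Il1f9, the mouse gene of IL-36γ, a ligand that uses its own receptor chain together with IL1RAP, was mainly a neutrophil transcript among the sorted leukocytes. Other cells of the tumors were not measured. It stood at 318 CPM (276 to 363) in the untreated library, 360.2 (322 to 402) after STING agonist, 335 (305 to 368) after LTβR agonist and 407 (322 to 507) after both, with overlapping intervals. UMIs of it were found in 36.7% (30.4 to 43.3), 39.1% (33.6 to 44.9), 45.2% (40.2 to 50.3) and 36.2% (25.0 to 48.7) of neutrophil-like cells in the same order. With both agonists 1 cell held 35.4% of the 79 UMIs and 10 cells held 78.5%. In monocyte-, macrophage- and dendritic-like cells it lay between 0 and 1.56 CPM in every library, and neutrophil-like cells held 93.6% of its 1141 UMIs. In the dendritic-like cells with both agonists no UMI was found, and 3 UMIs at that depth would be 1.12 CPM.

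**Figure D1:**
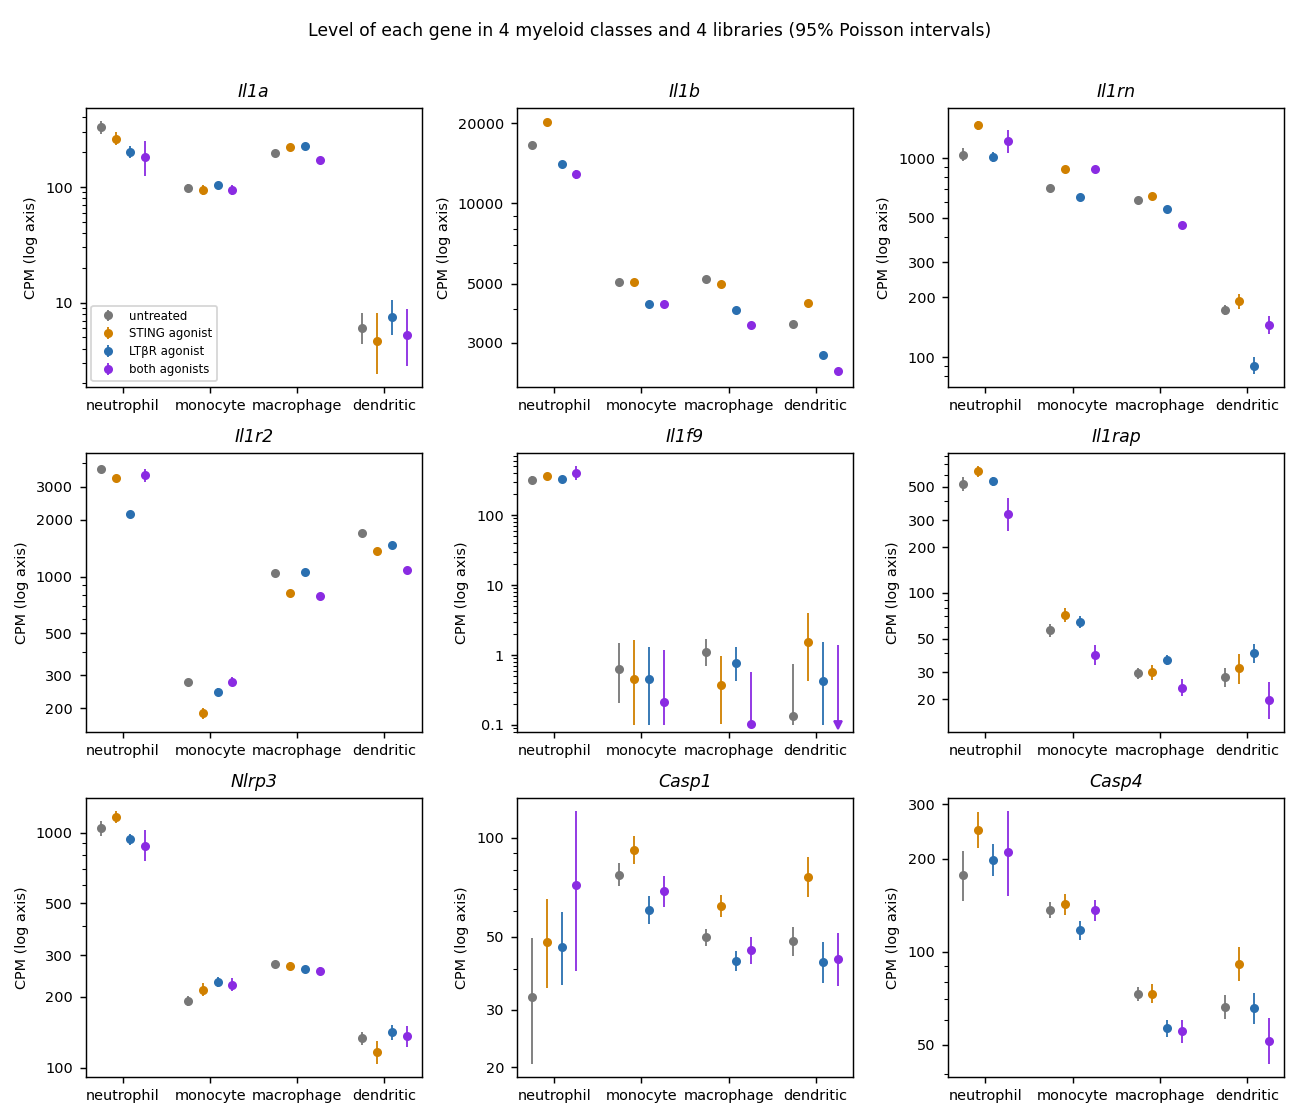
Level of each of the 9 genes (CPM, log axis) in neutrophil-, monocyte-, macrophage- and dendritic-like cells; points are the 4 libraries in the order untreated, STING agonist, LTβR agonist and both, bars are 95% Poisson intervals, and the triangle marks a count of 0. In CPM, neutrophil-like cells stand above the other 3 classes in each library for Il1b, Il1rn, Il1r2, Il1f9, Il1rap, Nlrp3 and Casp4. As UMIs per cell over the libraries, not scaled for depth, they lead for Il1b, Il1f9, Il1rap and Nlrp3 only. Il1rn (6.75 against 3.65) and Casp4 (1.18 against 0.657) are then highest in monocyte-like cells, and Il1r2 (17.5 against 9.17) in dendritic-like cells.

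The antagonist Il1rn and the decoy receptor Il1r2, the inhibitors of the pathway, were also abundant in myeloid cells. Il1rn in neutrophil-like cells was 1040 CPM (965 to 1120) in the untreated library, 1458 (1379 to 1539) after STING agonist, 1013 (960.4 to 1068) after LTβR agonist and 1215 (1065 to 1380) after both, the STING library being above the untreated and LTβR libraries. Monocyte-like cells held 710.1 CPM (692 to 729) in the untreated library, 883 (856 to 911) after STING agonist, 635 (616 to 654) after LTβR agonist and 883 (857 to 911) after both, with both libraries given the STING agonist above both that were not. In macrophage-like cells Il1rn was 619 CPM (608 to 629.8) in the untreated library, 644 (629 to 659) after STING agonist, 557 (546 to 568) after LTβR agonist and 459 (445 to 472) after both, lowest with both agonists, and in dendritic-like cells it was 173 CPM (163 to 182) in the untreated library, 191 (174 to 208) after STING agonist, 90.7 (82.2 to 99.7) after LTβR agonist and 145 (131 to 160.2) after both, lowest with the LTβR agonist alone. The dendritic-like level was therefore the lowest of the 4 classes in every library, 7.78-fold below that of neutrophil-like cells over the libraries together.

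Il1r2 followed another order, with neutrophil-like cells first, dendritic-like cells next, macrophage-like cells after them and monocyte-like cells last in every library. Neutrophil-like cells held 3728 CPM (3584 to 3877) in the untreated library, 3353 (3234 to 3475) after STING agonist, 2143 (2066 to 2223) after LTβR agonist and 3453 (3197 to 3725) after both, so that the LTβR library alone stood apart, below the other 3. Dendritic-like cells held 1708 CPM (1678 to 1738) in the untreated library, 1373 (1328 to 1419) after STING agonist, 1466 (1431 to 1501) after LTβR agonist and 1084 (1045 to 1124) after both, highest in the untreated library and lowest with both agonists, and neither interval met its neighbour's. Macrophage-like cells held 1050 CPM (1036 to 1064) in the untreated library, 819 (802 to 836) after STING agonist, 1054 (1039 to 1069) after LTβR agonist and 792 (775 to 810.0) after both, and the 2 libraries given the STING agonist were the lower ones. Monocyte-like cells, at 276, 188, 244 and 277 CPM in the same order, were lowest with the STING agonist alone. A UMI of Il1r2 was found in 92.1% of neutrophil-like but 39.1% of monocyte-like cells over the libraries, and in 81.2% and 16.3% of cells thinned to 1000 UMIs.

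Il1rap, the coreceptor chain that IL-1, IL-33 and IL-36 receptors share, was concentrated in neutrophil-like cells, at 549.9 CPM over the 4 libraries and 9.44-fold the monocyte-like level. Its values there were 521 CPM (468 to 578) in the untreated library, 632 (581 to 686) after STING agonist, 542 (504 to 583) after LTβR agonist and 329 (254 to 421) after both, the combined library lying below the other 3. Monocyte-like cells held 56.7 CPM (51.6 to 62.3) in the untreated library, 71.9 (64.2 to 80.2) after STING agonist, 64.6 (58.6 to 71.0) after LTβR agonist and 39.2 (33.7 to 45.2) after both, again with the combined library lowest and apart. Macrophage-like cells held 29.6 CPM (27.3 to 32.1) in the untreated library, 30.1 (26.9 to 33.6) after STING agonist, 36.2 (33.4 to 39.1) after LTβR agonist and 23.9 (20.9 to 27.1) after both, with the same library lowest and apart, and dendritic-like cells held 27.8 CPM (24.2 to 31.9) in the untreated library, 31.9 (25.4 to 39.6) after STING agonist, 40.1 (34.5 to 46.2) after LTβR agonist and 19.8 (14.8 to 25.8) after both, where the interval of the combined library met that of the untreated one. The levels of macrophage- and dendritic-like cells, 30.8 and 30.5 CPM over the libraries, were close to those of NK-like cells at 19.4 CPM.

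Nlrp3, the inflammasome sensor, was highest in neutrophil-like cells at 1045 CPM (969 to 1125) in the untreated library, 1165 (1095 to 1238) after STING agonist, 936 (886 to 989) after LTβR agonist and 880.1 (753 to 1022) after both. Macrophage-like cells came next with 276, 270.2, 262 and 257 CPM in the order untreated, STING agonist, LTβR agonist and both, then monocyte-like cells with 192, 215, 231 and 225 CPM, and dendritic-like cells were last with 133, 116, 141 and 136 CPM. NK-like cells held 0.627 CPM. The order of the classes was the same in all 4 libraries, and within macrophage-like cells the highest value was only 1.08 times the lowest.

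The 2 caspase genes did not share the neutrophil bias of Nlrp3 to the same degree. Casp1 was 77.1 CPM (71.1 to 83.5) in the untreated library, 92.1 (83.4 to 101) after STING agonist, 60.4 (54.6 to 66.6) after LTβR agonist and 68.8 (61.6 to 76.7) after both in monocyte-like cells, 49.7, 62.1, 42.3 and 45.6 CPM in macrophage-like cells and 48.4 CPM (43.6 to 53.7) in the untreated library, 76.2 (65.9 to 87.7) after STING agonist, 41.8 (36.1 to 48.1) after LTβR agonist and 42.9 (35.4 to 51.5) after both in dendritic-like cells. In macrophage- and dendritic-like cells the STING library stood above the other 3 with no overlap of intervals. Neutrophil-like cells held 32.7, 48.3, 46.5 and 72.1 CPM from only 22, 43, 63 and 14 UMIs, and their intervals overlapped. NK-like cells, at 31.2 CPM, were at most 2.36-fold below a myeloid class. Casp4 was 177 CPM (146 to 211) in the untreated library, 248 (216 to 283) after STING agonist, 199 (176 to 224) after LTβR agonist and 211 (151 to 286) after both in neutrophil-like cells and 137, 142, 117 and 136 CPM in monocyte-like cells. Macrophage- and dendritic-like cells lay lower, between 51.4 and 91.4 CPM, with the highest value in the dendritic-like cells of the STING library, apart from the other 3. NK-like cells held 51.9 CPM of Casp4.

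Differences between the classes were larger than differences between the libraries for 8 of the 9 members. Over the 16 combinations of class and library, the share of the variance of log2(CPM + 10) that lay between class means was 99.9% for Il1f9, 99.0% for Nlrp3, 98.6% for Il1a, 96.9% for Il1rap, 96.7% for Il1r2, 94.8% for Il1rn and 92.7% for both Il1b and Casp4, against a median of 84.5% over all genes compared. Casp1, at 40.7%, was the exception.

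Which cells held most of the RNA depended on how many cells a class had and on how many UMIs each cell gave. Macrophage-like cells held 73.7% of Il1a UMIs, 50.8% of Il1b, 54.7% of Il1rn, 50.3% of Il1r2 and 54.1% of Nlrp3 UMIs over the 4 libraries. Neutrophil-like cells, 4.30% of kept cells and shallow, held 9.80% of Il1b UMIs, 24.0% of Il1rap and 11.0% of Nlrp3. When every class was given the same total, the neutrophil-like share rose to 55.4% for Il1b, 73.6% for Il1rap, 61.0% for Nlrp3, 47.7% for Il1r2 and 42.7% for Il1a. Equal totals even out cell number and depth together. Counted per cell, neutrophil-like cells held 51.1 UMIs of Il1b against 43.7 in macrophage-like cells, but 0.768 of Il1a against 2.01. Dendritic-like cells held 23.3% of Il1r2 UMIs but 0.648% of those of Il1a.

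**Figure D2:**
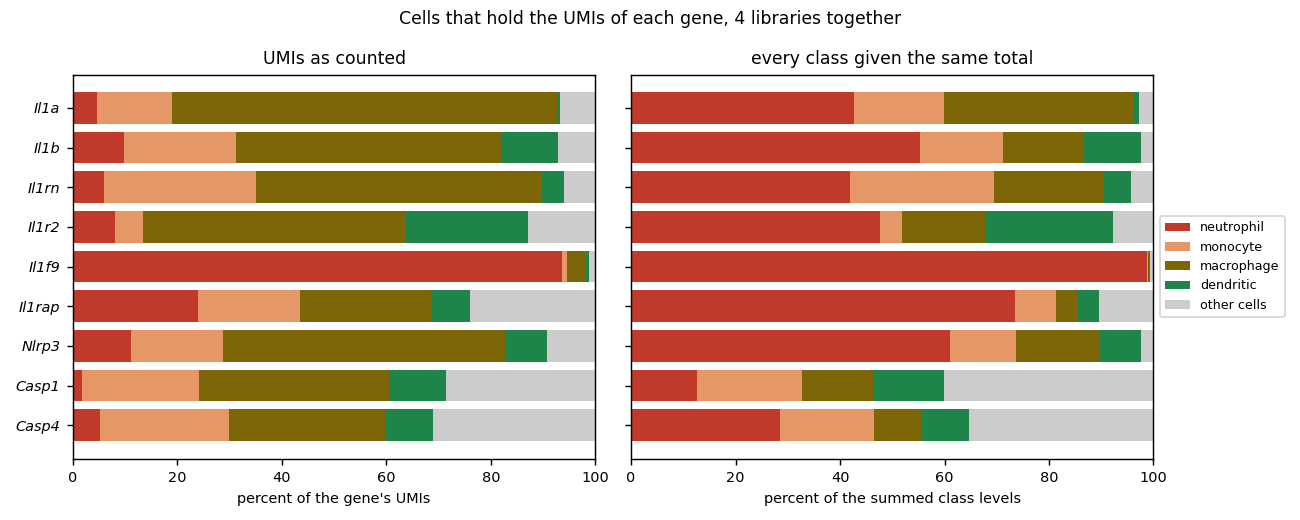
Percent of each gene's UMIs found in each class over the 4 libraries, as counted (left) and with every class scaled to the same total (right); grey stands for all other cells. As counted, macrophage-like cells hold 50.8% of Il1b UMIs and neutrophil-like cells 9.80%; with equal totals the neutrophil-like share is 55.4%.

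To compare treatments, the ratio of (CPM + 10) between 2 libraries was taken within each class for each member with at least 50 UMIs in 1 of the 2, and a ratio past 1.5-fold was called. With the STING agonist against untreated, 31 pairs of a member and a class had enough UMIs and none was past 1.5-fold, where over all genes 12.3% were past it in neutrophil-like, 0.536% in monocyte-like, 0.355% in macrophage-like and 1.48% in dendritic-like cells. Of the 31 ratios, 22 were above 0 and 9 below. The highest was Casp1 in dendritic-like cells, at a log2 ratio of 0.56 (0.25 to 0.87), and the next were Il1rn at 0.48 (0.30 to 0.67) and Casp4 at 0.47 (0.03 to 0.91) in neutrophil-like cells. Il1r2 was below 0 in all 4 classes, at -0.15 (-0.26 to -0.04) in neutrophil-like, -0.53 (-0.68 to -0.38) in monocyte-like, -0.35 (-0.40 to -0.30) in macrophage-like and -0.31 (-0.39 to -0.24) in dendritic-like cells. Every one of these intervals lay on 1 side of 0, although the neutrophil-like ratio changed sign in 1 of 12 alternative settings. Il1a in neutrophil-like cells was also below 0, at -0.32 (-0.69 to 0.05), with an interval that held 0.

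With the LTβR agonist against untreated, 3 of 32 pairs were past 1.5-fold, all lower. They were Il1a in neutrophil-like cells at -0.69 (-1.04 to -0.33), Il1r2 in neutrophil-like cells at -0.80 (-0.90 to -0.69) and Il1rn in dendritic-like cells at -0.86 (-1.06 to -0.66). Over all genes, 12.0% were past 1.5-fold in neutrophil-like, 1.37% in monocyte-like, 2.1% in macrophage-like and 1.63% in dendritic-like cells. The share in neutrophil-like cells, 2 of 9 members, stands against that background in the shallowest class. Of 12 alternative settings, the Il1a ratio was inside 1.5-fold in 2 (-0.42 without the 10 neutrophil-like cells with the most Il1a UMIs, and also with classes drawn from a per-cell marker score). The Il1r2 ratio was inside it in 1 (-0.54 with the mean of per-cell CPM), and so was the Il1rn ratio (0.025 with marker-score classes). Il1b was lower in all 4 classes, at -0.24 (-0.28 to -0.19) in neutrophil-like, -0.27 (-0.30 to -0.24) in monocyte-like, -0.38 (-0.40 to -0.36) in macrophage-like and -0.39 (-0.43 to -0.34) in dendritic-like cells, none past 1.5-fold.

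With both agonists against untreated, 4 of 31 pairs were past 1.5-fold, again all lower. They were Il1a at -0.83 (-1.50 to -0.19) and Il1rap at -0.65 (-1.16 to -0.15) in neutrophil-like cells, and Il1b at -0.59 (-0.64 to -0.54) and Il1r2 at -0.65 (-0.73 to -0.57) in dendritic-like cells. The background over all genes was 17.2% in neutrophil-like, 3.77% in monocyte-like, 3.12% in macrophage-like and 2.99% in dendritic-like cells. Just inside the threshold was Il1b in macrophage-like cells at -0.57 (-0.60 to -0.55), a 1.49-fold lower level. The Il1a ratio rested on the 35 UMIs of the combined library, and at clustering resolution 2 it was -0.51, inside 1.5-fold. The Il1b ratio of dendritic-like cells was inside 1.5-fold in 4 of 12 alternatives, namely a pseudocount of 50 CPM, median-of-ratios size factors, marker-score classes (-0.33) and without cells of high doublet score. The Il1r2 ratio of dendritic-like cells was inside it in 1, at -0.47 without the cells that carried at least 2 lymphocyte markers. The highest ratios were those of Il1f9 in neutrophil-like cells at 0.35 (-0.17 to 0.85) and Il1rn in monocyte-like cells at 0.31 (0.23 to 0.39).

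Adding the LTβR agonist to the STING agonist gave 6 of 31 pairs past 1.5-fold, all lower in the combined library. They were Il1rap at -0.92 (-1.40 to -0.46) and Il1b at -0.65 (-0.72 to -0.57) in neutrophil-like cells, Il1rap at -0.74 (-1.04 to -0.43) in monocyte-like cells, and Il1b at -0.85 (-0.91 to -0.78), Casp4 at -0.72 (-1.10 to -0.35) and Casp1 at -0.71 (-1.11 to -0.30) in dendritic-like cells. The background was 23.8%, 4.43%, 3.13% and 5.91% of all genes in neutrophil-, monocyte-, macrophage- and dendritic-like cells. In dendritic-like cells 3 of the 7 members with enough UMIs were thus past the threshold. Il1rap in neutrophil-like and Il1b in dendritic-like cells stayed past it in all 12 alternatives. The Il1b ratio of neutrophil-like cells was inside it with per-cell means and at resolution 2 (-0.32), the Il1rap ratio of monocyte-like cells in 3 alternatives (weakest -0.45), and the Casp4 and Casp1 ratios in 2 each (weakest -0.48 and -0.40). Against the LTβR agonist alone, 5 of 32 pairs were past it. Il1r2 in neutrophil-like cells, at 0.69 (0.52 to 0.85), and Il1rn in dendritic-like cells, at 0.62 (0.36 to 0.88), were higher with both agonists, and Il1rap was lower in neutrophil-like (-0.70), monocyte-like (-0.60) and dendritic-like cells (-0.75). The corresponding background was 21.5%, 2.39%, 1.05% and 1.68%. The Il1r2 and Il1rn ratios were each inside 1.5-fold in 6 of 12 alternatives, among them leaving out the cells that carried at least 2 lymphocyte markers, and were weakest with marker-score classes, at 0.15 and 0.29. The Il1rap ratio was inside it in 6 of 12 alternatives in monocyte-like cells (weakest -0.36), in 3 in dendritic-like cells (weakest -0.37) and in none in neutrophil-like cells. These contrasts share libraries with each other and are not separate evidence.

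**Figure D3:**
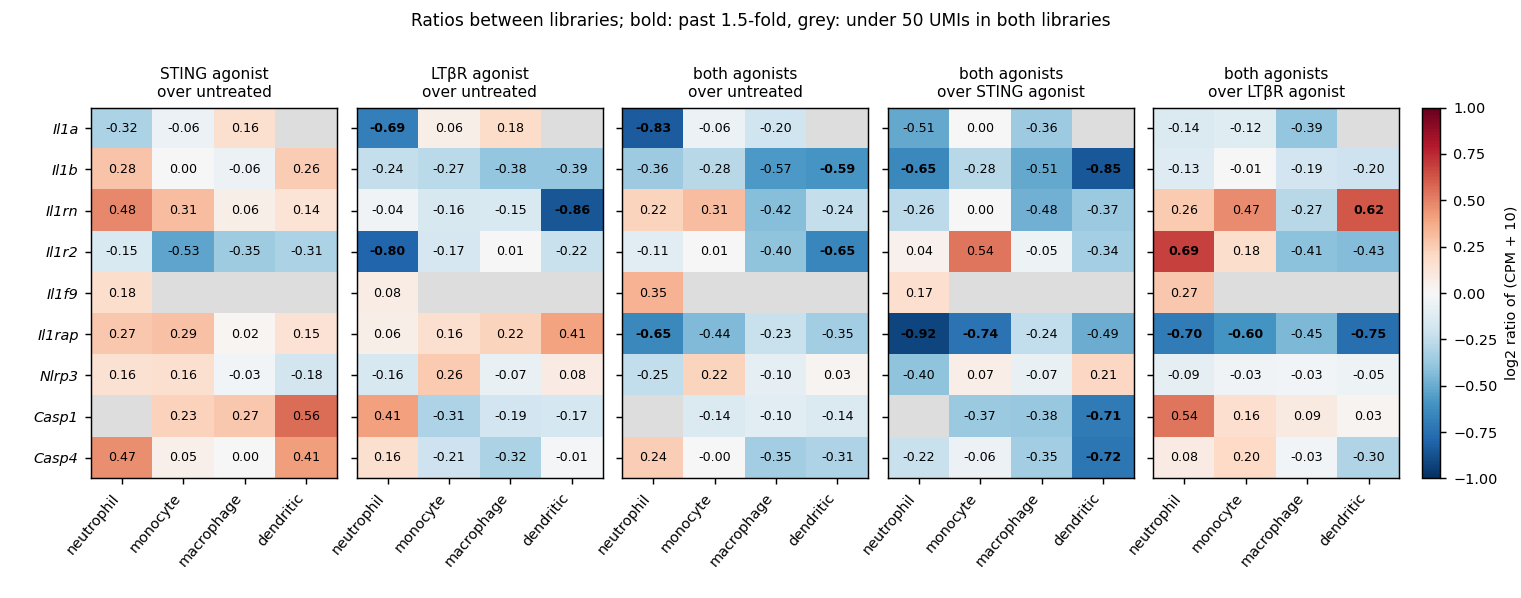
Log2 ratio of (CPM + 10) for each gene (vertical) and class (horizontal) in 5 contrasts of libraries; red is higher and blue lower in the first library named, bold numbers are past 1.5-fold and grey cells had under 50 UMIs in both libraries. Il1b is below 0 in all 4 classes in both contrasts of an LTβR-agonist library with untreated, and Il1rap is below 0 in all 4 classes in the 3 contrasts of the combined library.

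Il1b and Il1rap were lowest with both agonists in each of the 4 classes. Of 3272 genes with enough UMIs in every class, 90 (2.75%) had this pattern, among them 2 of the 7 members that could be compared. Il1b was also the 1 member for which both libraries with the LTβR agonist were below both without it in every class, as were 63 of all genes (1.93%). Casp4 was highest with the STING agonist alone in every class, as were 88 genes (2.69%), but it was apart from the next library in dendritic-like cells alone. These patterns were described after the values had been seen. The lowest value of Il1b was apart from the next in neutrophil-, macrophage- and dendritic-like cells but not in monocyte-like cells, and that of Il1rap in neutrophil-, monocyte- and macrophage-like but not in dendritic-like cells.

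For Il1rap the combined library was not the sum of its parts on the log2 scale. The change with both agonists minus the changes with each alone was -0.98 in neutrophil-like, -0.90 in monocyte-like, -0.90 in dendritic-like and -0.47 in macrophage-like cells. Each agonist alone gave Il1rap ratios at or above 0 in all 4 classes, from 0.02 to 0.41, while the combination gave ratios from -0.65 to -0.23, the weakest of them in macrophage-like cells, where the sign changed in 1 of 12 alternatives for both agonists and in 3 for the STING agonist. Over all genes with enough UMIs the 5th and 95th percentiles of this difference were -1.08 and 1.08 in neutrophil-like, -0.42 and 0.38 in monocyte-like, -0.49 and 0.41 in dendritic-like and -0.27 and 0.29 in macrophage-like cells, so that the Il1rap value lay inside this range in neutrophil-like cells and below it in the other 3 classes. Il1r2 differed by 0.84 in neutrophil-like and 0.71 in monocyte-like cells but by -0.05 in macrophage-like and -0.12 in dendritic-like cells. Casp4 differed by -0.71 and Casp1 by -0.53 in dendritic-like cells, and Il1a by -0.55 in macrophage-like cells. No test of these interactions was possible with 1 library per group. In neutrophil-like cells the Il1rap values of the combined library came from 64 UMIs in 69 cells, and its ratios to the other 3 libraries stayed past 1.5-fold in all 12 alternatives tried. In 1 of these the 10 cells with the most UMIs were left out, which held 60.9% of the UMIs of the combined library. They held 25.6%, 18.1% and 16.2% in the untreated, STING and LTβR libraries, so that setting leaned towards a deeper fall.

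At the level of RNA, ligand can be set against inhibitor as captured molecules of Il1b per captured molecule of Il1rn in the same class. Neither protein nor the capture of each gene's RNA was measured. In neutrophil-like cells it was 15.9 (14.7 to 17.2) in the untreated library, 13.8 after either agonist alone and 10.6 (9.25 to 12.1) after both. Monocyte-like cells had 7.15, 5.76, 6.63 and 4.75, and macrophage-like cells 8.41, 7.74, 7.16 and 7.61, in the same order. Dendritic-like cells had the highest ratio in every library, at 20.5 (19.4 to 21.7), 22.2 (20.3 to 24.4), 29.9 (27.1 to 33.0) and 16.2 (14.6 to 18.0). The ratio was lowest with both agonists in neutrophil-, monocyte- and dendritic-like cells, and with the LTβR agonist alone in macrophage-like cells. Per molecule of Il1r2, neutrophil-like cells held 4.43, 6.00, 6.55 and 3.72 molecules of Il1b. By this measure the order of the classes was different. Dendritic-like cells had the lowest ratio in every library, at 2.07, 3.08, 1.85 and 2.17. Monocyte-like cells had the highest, at 18.4, 27.0, 17.2 and 15.1. The class with the most captured Il1b RNA per inhibitor RNA thus depended on the inhibitor.

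The macrophage-like values combined clusters whose shares differed between libraries. Cluster 0, led by the complement genes C1qa, C1qb and C1qc, was 51.7%, 51.8%, 24.8% and 23.7% of macrophage-like cells in the untreated, STING, LTβR and combined libraries. Cluster 3, led by Inhba, Spp1 and Nos2, was 36.0%, 31.6%, 39.9% and 22.7%, and cluster 5, led by Retnla, Ccl8 and Mrc1, was 9.76%, 11.5%, 30.6% and 46.7%. Cluster 5 had the lowest levels of these 3 clusters of Il1a, Il1b, Il1rn and Il1r2. Its Il1b was 2359, 2966, 1991 and 2021 CPM in the same order, against 5092, 4676, 4151 and 3822 CPM in cluster 0 and 6084, 6391, 5133 and 5461 CPM in cluster 3. Il1a was 47.7 CPM over the libraries in cluster 5 and 330.0 CPM in cluster 3.

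Within clusters, the lower Il1b of the combined library against untreated had a log2 ratio of -0.41 (-0.45 to -0.38) in cluster 0, -0.16 (-0.19 to -0.12) in cluster 3 and -0.22 (-0.30 to -0.14) in cluster 5, each closer to 0 than the class ratio of -0.57. Il1rn, at -0.42 in the whole class, was -0.06 (-0.17 to 0.04), -0.10 (-0.20 to 0.00) and -0.21 (-0.47 to 0.04) in clusters 0, 3 and 5, and these intervals held 0 or ended at it. Il1r2 was -0.40 in the class and -0.25 (-0.50 to 0.00) in cluster 5, but 0.14 (0.07 to 0.20) in cluster 0 and 0.08 (-0.01 to 0.17) in cluster 3. With the LTβR agonist alone, where the class ratio was 0.01, Il1r2 was 0.31 (0.26 to 0.36) in cluster 0, 0.26 (0.20 to 0.33) in cluster 3 and 0.13 (-0.10 to 0.37) in cluster 5. Nlrp3 in cluster 5 was 0.56 (0.26 to 0.85) with both agonists.

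**Figure D4:**
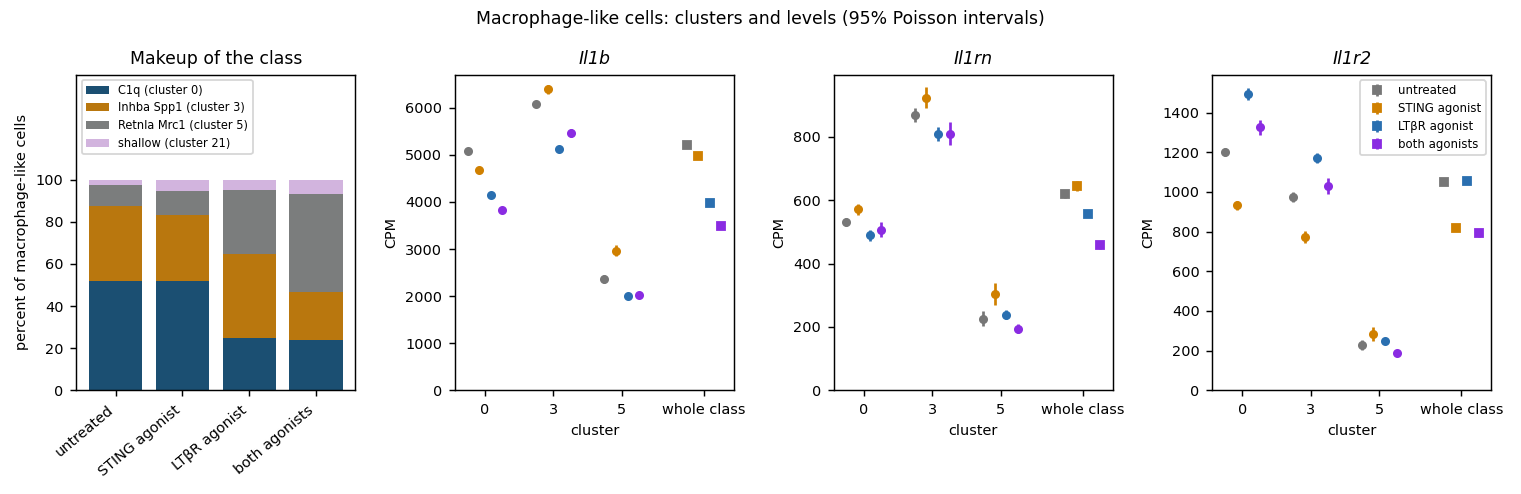
Left, percent of macrophage-like cells in clusters 0, 3, 5 and 21 in each library; right, Il1b, Il1rn and Il1r2 (CPM, linear axes from 0) in clusters 0, 3 and 5 (circles) and in the whole class (squares), with 95% Poisson intervals, colored by library. Cluster 5 is 9.76% of the class untreated and 46.7% with both agonists, and of these 3 clusters it holds the lowest levels of all 3 genes.

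Members also split the clusters inside the other classes. In the monocyte-like class, cluster 2, led by Cxcl10, Tgm2 and Ifit2, held 122 CPM of Il1a and 5354 of Il1b over the libraries, whereas cluster 16, led by Hp, Plcb1 and Lyz2, held 2.54 and 1861. Il1rap went the other way, at 83.2 CPM in cluster 16 and 52.1 in cluster 2. In the dendritic-like class, cluster 8, with Cd209a, Kmo and Mgl2 among its leading genes, held 1900 CPM of Il1r2 and 174 of Nlrp3, against 429 and 24.3 in cluster 17, led by Fscn1, Ccr7 and Ccl22. Il1rn was higher in cluster 17, at 304, 285, 126 and 212 CPM in the order untreated, STING agonist, LTβR agonist and both, against 122, 156, 77.9 and 117 CPM in cluster 8, and it was lowest with the LTβR agonist alone in both clusters. The 2 clusters kept nearly the same shares of the class, cluster 8 being 67.1% to 68.9% of it.

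The other genes of the pathway, 61 in a list of receptors, adaptors, sensors and effectors, were compared between libraries with the same threshold. With the STING agonist against untreated, 4 of the 24 with enough UMIs were past 1.5-fold higher in neutrophil-like cells, led by Il18, an IL-1 family cytokine, at 0.81 and the guanylate-binding protein gene Gbp3 at 0.68, and none was lower. None of 43 in monocyte-like and none of 48 in macrophage-like cells was past it, and 1 of 45 in dendritic-like cells was, Gbp2 at 0.62. With the LTβR agonist, 2 of 28 were higher (P2rx7 at 1.51 and the inflammasome adaptor gene Pycard at 0.85) and 4 lower (led by Gbp5 at -1.11 and Gbp2 at -0.98) in neutrophil-like cells. In macrophage-like cells 2 of 51 were lower, Gbp2 at -0.97 and, slightly below it, Il18bp, which encodes the IL-18 binding protein. In monocyte-like cells 3 of 43 were lower, with Gbp2 at -0.74 and Gbp3 at -0.69. In dendritic-like cells 1 of 45 was higher, Il1rapl1 at 0.59, and 3 were lower, with Il18bp at -0.71 and Gbp2 at -0.65. With both agonists, none of 43 was past 1.5-fold in monocyte-like and none of 45 in dendritic-like cells, and 1 of 48 was in macrophage-like cells, Pstpip1, at -0.59. In neutrophil-like cells 1 of 20 was higher, Gbp5 at 0.66, and 3 were lower, among them Naip2 at -0.99 and Tab2 at -0.78. The median log2 ratio of the list lay between -0.15 and 0.16 in these 3 contrasts, beside -0.05 to 0.05 for all genes. Over all genes in neutrophil-like cells, 4.4% were past 1.5-fold higher and 7.87% lower with the STING agonist, 7.55% higher and 4.44% lower with the LTβR agonist, and 6.89% higher and 10.3% lower with both. In the other 3 classes the share of all genes past 1.5-fold in 1 direction was at most 1.96%. Lower with the LTβR agonist were 0.541% of all genes in monocyte-like, 0.735% in macrophage-like and 0.655% in dendritic-like cells. These stand beside the 3 of 43, 2 of 51 and 3 of 45 of the list. Beside the single genes, 0.877% were higher with the STING agonist and 0.977% with the LTβR agonist in dendritic-like cells. In macrophage-like cells with both agonists, 1.22% were lower.

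Inflammatory genes known to be driven by NF-κB, 32 in all, were read in the same way. With the STING agonist, 7 of 28 were past 1.5-fold higher in neutrophil-like cells, led by the chemokine genes Cxcl3 at 1.76 and Ccl4 at 1.22, and none was lower, while the counts were 0 of 29 in monocyte-like and 0 of 30 in macrophage-like cells, and 1 of 27 was higher in dendritic-like cells, Ccl4 at 0.67. With both agonists, 5 of 29 were lower in monocyte-like cells, led by Ier3 at -1.32 and the chemokine gene Cxcl2 at -1.12, and 2 were higher, Bcl2a1b at 1.28 and Nfkb2 at 0.77. In macrophage-like cells 5 of 30 were lower, with Ier3 at -1.10 and Clec4e at -0.64, and in dendritic-like cells 4 of 27, with Ccl4 at -0.86 and Ptgs2, the gene of cyclooxygenase-2, at -0.76. In neutrophil-like cells Cxcl3 (0.92) and Nfkbie (0.62) were higher and Nfkb1 (-0.76) lower, of 26. With the LTβR agonist alone, 7 of 28 were lower in neutrophil-like cells, led by Icam1 at -1.35 and Tnip1 at -0.99, and 2 were higher, Cxcl3 at 1.15 and Ccl4 at 0.80. In the other classes that contrast gave 2 of 30 higher in monocyte-like cells (Cxcl3 at 1.26 and Bcl2a1b at 0.81), 1 of 30 higher in macrophage-like cells (Il6 at 0.89), and in dendritic-like cells 1 of 27 higher (Cxcl2 at 1.22) and 2 lower (Ptgs2 at -0.69 and Ccl4 at -0.59). The shares over all genes given for the pathway list apply here too. In neutrophil-like cells they stand at 4.4% higher beside the 7 of 28 with the STING agonist, 4.44% lower beside the 7 of 28 with the LTβR agonist, and 6.89% higher and 10.3% lower beside the 2 and 1 of 26 with both. In monocyte-, macrophage- and dendritic-like cells with both agonists, 1.96%, 1.22% and 1.72% of all genes were lower. The median log2 ratio of the list lay between -0.24 and 0.16 in these 3 contrasts.

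The genes with the highest Pearson r to a member over the 16 combinations of class and library were sought among 10725 genes with at least 200 UMIs. For Il1b they were Pik3ap1 (Pearson r = 0.988), Ccl4 (0.981) and Selenon (0.980), and for Nlrp3 Cd300ld (0.992), Selenon (0.989) and Tlr6 (0.988). Il1rn was followed by Cebpb (0.984), Igsf6 (0.975) and Sh2b2 (0.971), and Il1r2 by D030028A08Rik (0.969), Acsl1 (0.956) and Plp2 (0.951). The caspases were followed by interferon-stimulated genes among others. Casp4 went with Oasl2 (0.987) and Isg15 (0.967), and Casp1 with Adar (0.870), Slfn5os (0.851) and Trafd1 (0.845). The choice depended on the coefficient. Ranked by Spearman correlation, Pik3ap1 for Il1b and Oasl2 for Casp4 stayed first. Selenon and Tlr6 were then at places 76 and 163 for Nlrp3, and Acsl1 at place 69 for Il1r2. The 16 points share 4 libraries and 4 classes, and the coefficients describe the order of the classes above all. Casp1 was the exception, since 40.7% of its variance lay between class means. Its coefficients also reflect differences between libraries within a class.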

How the data were processed

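Leukocytes of 4 treatment groups were measured as 4 single-cell libraries with a 5′ kit. The authors deposited UMI counts per gene and cell in 1 matrix for all libraries, and barcode suffixes were matched to the sample labels. Per the submitters' processing notes, Cell Ranger 7.1.0 and build mm10 were used. The study ran more than 1 single-cell experiment, and which one these libraries come from is not given in the sources used here.

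Cells with 300 to 5000 genes and at most 6% mitochondrial UMIs were kept, as in the study's methods. Cells were clustered with Scanpy 1.11.5 and leidenalg 0.10.2 (Python 3.11.15; 2000 variable genes, 30 components, 20 neighbours, resolution 1) after leaving out 635 antigen receptor genes and 70 member and pathway genes, which gave 23 clusters. Clusters were named "-like" from marker genes, so that names were rebuilt here, and 4551 cells stayed unnamed. Doublets were kept. Leaving out cells of Scrublet score 0.2 or more was an alternative. The dendritic-like class held no plasmacytoid cells.

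UMIs were summed per library and class and given as CPM, the UMIs of a gene scaled to a fixed total of the class, with exact Poisson intervals. Shares of cells have Clopper-Pearson intervals (SciPy 1.17.1). UMIs are counted molecules, and depth is given by the class totals. Ratios used CPM + 10, and ratios past 1.5-fold with at least 50 UMIs in 1 library were called. The steps were tested on simulated data. Alternatives were other pseudocounts, size factors, per-cell means, equal cluster weights, resolution 2, marker-score classes, members kept in clustering, a stricter mitochondrial limit, no count minimum, and leaving out doublets, cells with lymphocyte markers or the 10 highest cells.

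The text names the 9 members, the 3 genes most correlated with each of 6 members, and at most the 2 highest and 2 lowest genes past 1.5-fold of each list. Of the correlated genes, 1 is not reported here. The members and lists were chosen with earlier results of these data known. Gene positions are from GENCODE M21 and promoters from RefSeq GRCm38.p6, in which 13 promoters matched the members.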

Additional observations from a re-analysis of the deposited data

Results flagged for a closer look

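In lymphocytes, which the comparisons above did not use, 3 of the members were at least 5 times the NK-like level in each of the 4 libraries in at least 1 lymphocyte class. Il1r2 stood at 88.7 CPM over the libraries in T-like cells and at 224 CPM in regulatory T-like cells, against 10.7 CPM in NK-like cells. Within the T-like class it was 199, 176, 346 and 168 CPM in cluster 4, led by Penk, Cd4 and Tnfsf11, in the order untreated, STING agonist, LTβR agonist and both, and 52.9 CPM over the libraries in cluster 1, led by Cd8a. Regulatory T-like cells held 273, 275, 204 and 192 CPM in the same order. Il1rn stood at 37.2 CPM in regulatory T-like cells, from 27, 18, 52 and 30 UMIs, 50.4% of which lay in 10 cells. B- or plasma-like cells held Il1rn at 50.2 CPM over the libraries, from 31, 1, 57 and 163 UMIs, and had only 14 cells in the STING library. Il1b was 164, 20.3, 44.5 and 74.7 CPM in the regulatory T-like cells, against 336 CPM over the libraries in B- or plasma-like cells and 20.7 CPM in NK-like cells. The part of myeloid RNA in these values was not tested.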

How the results depend on the processing

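No paired analysis was possible because each group was a single library and the labels carry no replicate numbers, and for the same reason no replicate could be left out. Against untreated, the count of pairs of a member and a class past 1.5-fold depended on the settings as follows, the cause of each shift not being tested. With the STING agonist, 0 higher became 1 with a pseudocount of 1 CPM, 2 with median-of-ratios size factors, 1 with marker-score classes and 1 without the 10 cells with the most UMIs of the gene, and 0 lower became 1 without those cells. With the LTβR agonist, 0 higher became 1 and 3 lower became 1 with marker-score classes. With both agonists, 0 higher became 1 with marker-score classes and 1 with no count minimum, and 4 lower became 9 with marker-score classes and 8 without the 10 highest cells.

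Of the 180 ratios of a member in a class, 77 changed sign in at least 1 alternative, with a median size of 0.11 as reported. Among the 18 past 1.5-fold, 1 did. Il1rn in dendritic-like cells with the LTβR agonist against untreated was 0.025 with marker-score classes and -0.86 as reported, and it was past 1.5-fold in the other 11 alternatives. Of the 18 called ratios, the number still past 1.5-fold ran from 8 with marker-score classes to 18 with at most 4% mitochondrial UMIs or a pseudocount of 1 CPM, being 11 with a pseudocount of 50 CPM, 12 with per-cell means and 13 at resolution 2. Called in all 12 alternatives were Il1b in dendritic-like cells with both agonists against the STING agonist and the 3 ratios of Il1rap in neutrophil-like cells. The 69 neutrophil-like cells of the combined library limited the precision there.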

Other observations

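Receptor chains of the IL-1 family were read outside the myeloid classes. Il1r1, the signaling receptor of IL-1, stood at 613, 584, 716 and 687 CPM in the order untreated, STING agonist, LTβR agonist and both in the unnamed cluster 18, led by Il17a, Trdv4 and Cd163l1, and 73.4% of its 395 cells carried a UMI. Il18r1, a chain of the IL-18 receptor, was 901, 703, 863 and 612 CPM in the same cluster and 275, 228, 295 and 265 CPM in the NK-like cluster 7. Il1rl1, the IL-33 receptor, was 164, 159.8, 220.5 and 221 CPM in regulatory T-like cells and 75.4, 24.8, 121 and 246 CPM in cluster 4, led by Penk, Cd4 and Tnfsf11. Neutrophil-like cells carried Il18rap, the other IL-18 receptor chain, at 235, 274, 203 and 237 CPM, and 42.9% of them had a UMI of it. Il18 itself was highest in the monocyte-like cluster 2, at 104, 99.6, 89.4 and 79.6 CPM.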
